A study of Mus musculus with 4 samples.

Results

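The genes described here are 10 members of the bone morphogenetic protein (BMP) pathway: the ligands Bmp2, Bmp4 and Bmp7, the receptors Bmpr1a and Bmpr2, the target genes Id1, Id2 and Id3, and the inhibitors Nog and Bambi. They were chosen by symbol, and their probe sets were all those annotated to that symbol alone. Of the 10 genes, 9 had a probe set, with 12 probe sets in all, among 8252 genes with 10855 probe sets on the array; Bambi was not analysed here. The samples were molar tooth germs dissected from the lower jaw of NMRI mouse embryos at embryonic day 14 and kept in organ culture for 24 h in DMEM with fetal calf serum. One group received 1 µM TCDD (2,3,7,8-tetrachlorodibenzo-p-dioxin), an environmental toxicant that activates the aryl hydrocarbon receptor and that was added from a stock in DMSO, and the control group received DMSO alone at 0.65%. Each group had 2 arrays, and each array was hybridised with RNA from a pool of about 60 explants gathered over 3 experiments. The replicates are pools of embryos and not single animals, and the labels do not say whether pools of the same number were collected together. The RNA used for labelling was 11 µg in each replicate 1, 7 µg in DMSO replicate 2 and 8 µg in TCDD replicate 2, and only DMSO replicate 2 lists ascorbic acid in its medium.

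BMPs are secreted signals of the TGF-beta superfamily that bring type I receptors such as Bmpr1a together with type II receptors such as Bmpr2. The activated receptors phosphorylate Smad proteins, which enter the nucleus with Smad4 and switch on targets, among them the Id genes. Id proteins lack a DNA-binding region and hold back E proteins and other basic helix-loop-helix factors. Noggin, the product of Nog, binds BMPs outside the cell and blocks them. In the developing tooth, BMP4 passes between epithelium and mesenchyme and maintains Msx1, and the enamel knot, the signalling centre of the epithelium, makes BMP2, BMP4 and BMP7.

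Promoter windows were read to show which letters lie ahead of the start site in the ligand gene Bmp4 and in the target genes Id2 and Id3, as TCDD acts on transcription through the aryl hydrocarbon receptor and BMPs through Smads. The RefSeq promoter table (build GRCm38.p6) held 5 of the 10 members, namely Bmp4, Bmpr1a, Bmpr2, Id2 and Id3. Each window is the 250 bases before the annotated start, 5′ to 3′ on the gene's strand. Capitals mark every match, on either strand, of GCGTG (the core bound by the aryl hydrocarbon receptor with its partner), of GGCGCC (a GC-rich motif of BMP-responsive Smads) and of GTCT (the Smad box, AGAC on the other strand). No match overlapped another in these 3 windows.
Bmp4, chr14:46390670-46390919, minus strand: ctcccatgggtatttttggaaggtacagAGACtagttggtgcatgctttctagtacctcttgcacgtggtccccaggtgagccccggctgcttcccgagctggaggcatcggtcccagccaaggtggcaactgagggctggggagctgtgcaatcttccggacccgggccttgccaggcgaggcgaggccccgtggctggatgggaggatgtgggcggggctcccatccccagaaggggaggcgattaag
Id2, chr12:25096093-25096342, minus strand: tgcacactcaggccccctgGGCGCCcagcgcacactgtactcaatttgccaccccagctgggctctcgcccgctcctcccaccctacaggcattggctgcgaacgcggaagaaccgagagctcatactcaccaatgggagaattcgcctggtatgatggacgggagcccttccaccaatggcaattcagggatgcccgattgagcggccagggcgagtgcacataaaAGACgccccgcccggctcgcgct
Id3, chr4:136143572-136143821, plus strand: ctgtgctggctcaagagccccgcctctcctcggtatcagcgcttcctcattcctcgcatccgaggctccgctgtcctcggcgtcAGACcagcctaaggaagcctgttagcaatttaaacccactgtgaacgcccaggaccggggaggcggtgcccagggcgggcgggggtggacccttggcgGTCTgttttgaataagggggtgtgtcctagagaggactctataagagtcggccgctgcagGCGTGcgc

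The core GCGTG was found in the Id3 window, where it begins 8 bases before the start, and in none of the other 4 members' windows. It occurs in 28.2% of the 32851 promoter windows of the same length. GGCGCC was found in the windows of Id2 (231 bases before the start), Bmpr1a (198) and Bmpr2 (105), and occurs in 9.59% of all windows. GTCT was found in Bmp4 (222 bases before the start), in Id2 (23) and at 2 places in Id3 (166 and 68), and occurs in 82.9% of all windows. These matches describe letters and were not tested as binding sites.

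Values are MAS5 signals, on a linear scale with each array scaled to a target of 100, and differences are TCDD minus DMSO on the log2(signal + 16) scale, which understates changes of dim probe sets. Tests were limma fits over the 5783 probe sets whose signal averaged 50 or more. The exposure was checked on Cyp1a1, the classical target of the receptor, which had DMSO signals of 14.7 and 12.7 and TCDD signals of 194.8 and 210.5 (limma adjusted p 3.7e-04). Cyp1a1 passed the filter only through its TCDD arrays, and 2 of its signals were stored as calendar days. Cyp1b1, looked up for the same check, had DMSO signals of 98.6 and 77.8 and TCDD signals of 519.9 and 455.0 (limma adjusted p 9.2e-04). On the whole array 4 probe sets passed an adjusted p of 0.05. The labelled tissue was checked on markers: 7 of 10 listed genes of the dental epithelium and 8 of 10 of the dental mesenchyme passed the signal filter, while the epithelial keratin genes Krt5 and Krt14 stayed at 10.8 or less on every array, and Pax9 and Vim of the mesenchyme list had means under 50. The summed signal of the epithelial list was 1880 and 2511 in DMSO and 2634 and 2894 in TCDD. Most of that sum came from the desmosome genes Dsp (936.4 and 1346.5, then 1379.2 and 1566.5) and Perp (393.2 and 592.1, then 756.8 and 738.0), while Cdh1, the E-cadherin gene, went from 170.3 and 141.1 to 101.2 and 120.5. The summed signal of the macrophage list was 651.3 and 616.7 in DMSO and 847.6 and 834.8 in TCDD; the part of these markers in the values below was not tested. In a whole explant, fewer cells of a type and less RNA per cell cannot be told apart.

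No BMP member changed past the test after TCDD. Of the 12 member probe sets, 8 from 7 genes passed the filter, each with a mean above 50 in both groups, and 0 passed limma's adjusted p of 0.05 in either direction, where 0.0692% of all probe sets did. At an unadjusted p of 0.05 the members also gave 0, against 2.59% of all. Their differences lay between -0.40 and 0.42, with a median of 0.16 against 0.01 for all probe sets tested, and every adjusted p was 0.997. The difference was above 0 at 5 probe sets and below 0 at 3, where 51.1% of all were above 0 and 48.9% below. In 3 of 8 (Bmp4 93456_r_at, Bmpr1a and Id2) both TCDD arrays were above both DMSO arrays, which held for 15.3% of all probe sets, and in 0 of 8 were both below, against 14.6% of all. These counts moved with single arrays: without TCDD replicate 1 all 8 probe sets were above 0, and without DMSO replicate 1 or TCDD replicate 2 only 3 were.

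**Figure D1:**
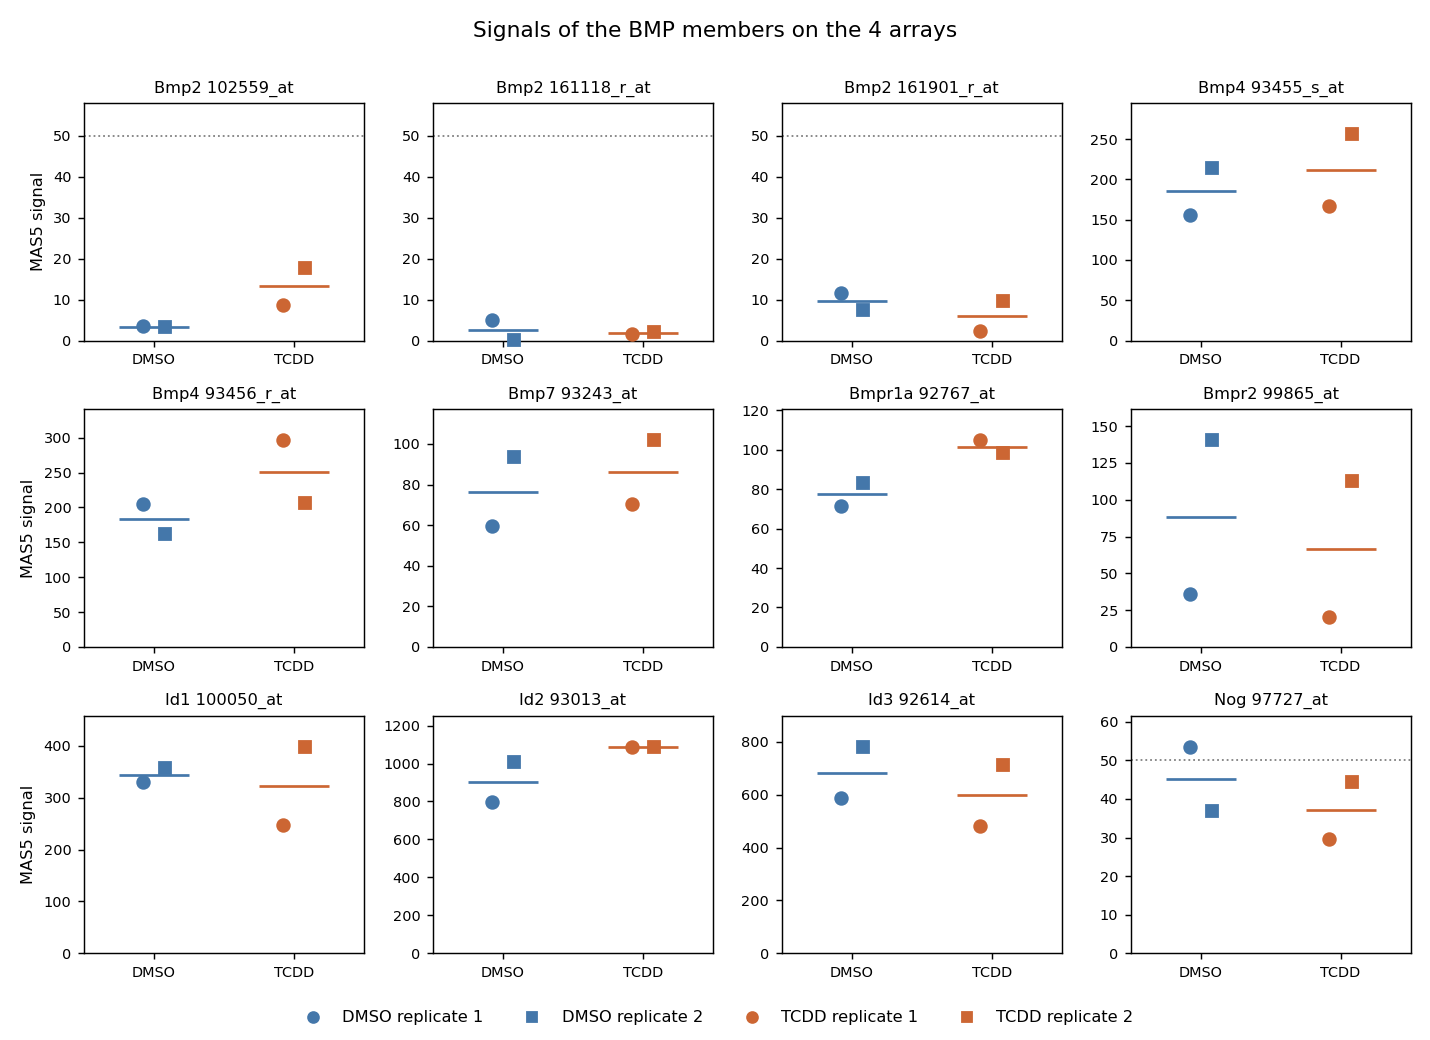
MAS5 signal (vertical axis, linear from 0) of each of the 12 member probe sets on the 2 DMSO and 2 TCDD arrays. Circles are replicate 1, squares replicate 2, horizontal bars group means, and the dotted line the signal of 50 used as a filter, drawn where the probe set was below it. In 6 of the 8 probe sets past the filter the squares lie above the circles in both groups.

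Among the ligands, Bmp4 is represented by a pair of probe sets that gave different pictures. At 93455_s_at the DMSO signals were 155.9 and 214.1 and the TCDD signals 167.0 and 256.1. The groups overlapped, and the lower array of each was replicate 1. The difference was 0.17 ± 0.25 (SE, n = 2 arrays a group), with a 95% interval from -0.38 to 0.71, and leaving out DMSO replicate 1 made it -0.04, leaving out TCDD replicate 2 made it -0.12. At 93456_r_at the DMSO signals were 204.4 and 161.3 and the TCDD signals 296.1 and 207.0. Here replicate 1 was the higher array of each group, and both TCDD arrays were above both DMSO arrays, although TCDD replicate 2 exceeded DMSO replicate 1 by only 0.02 on the log2 scale. The difference was 0.42 ± 0.23 (SE), with an interval from -0.09 to 0.92, or from 0.94-fold to 1.9-fold of signal + 16. With 1 array left out it lay between 0.17 (without TCDD replicate 1) and 0.66 (without TCDD replicate 2). In Affymetrix naming the suffix s marks probes that match more than one transcript and the suffix r a set chosen under relaxed rules.

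Bmp7, a ligand of tooth epithelium, had DMSO signals of 59.4 and 93.6 and TCDD signals of 70.5 and 101.7. Replicate 2 was again the higher array of each group, and the groups overlapped. The difference was 0.15 ± 0.26 (SE), with an interval from -0.42 to 0.73, and leaving out DMSO replicate 1 made it -0.12, leaving out TCDD replicate 2 made it -0.07.

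Bmp2, a ligand made by the enamel knot, was dim on every array. At 102559_at it had DMSO signals of 3.5 and 3.2 and TCDD signals of 8.8 and 17.8. At 161901_r_at these were 11.7 and 7.5 in DMSO and 2.4 and 9.7 in TCDD, and at 161118_r_at 4.9 and 0.1 in DMSO and 1.6 and 2.2 in TCDD. The TCDD arrays were above the DMSO arrays at the first probe set, and the groups overlapped at the other two. All 3 lay far below the filter, and no detection call was used here, so nothing says whether any was above background. In a fit without the filter 102559_at differed by 0.58 ± 0.19 (SE), with a limma p of 0.0162 and an adjusted p of 0.979. That difference was 1.64 when 1 was added to the signal in place of 16 and 0.20 when 64 was, and all 4 of its signals were stored as calendar days in the deposited table.

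Of the 8 probe sets past the filter, those of the receptors had the smallest (Bmpr1a) and the largest (Bmpr2) differences between replicates. Bmpr1a, a type I receptor, had DMSO signals of 71.6 and 83.3 and TCDD signals of 104.7 and 98.1. Both TCDD arrays were above both DMSO arrays, by 0.20 to 0.46 on the log2 scale over the 4 array pairs. The difference was 0.33 ± 0.21 (SE), with an interval from -0.14 to 0.80 and a limma adjusted p of 0.997. With 1 array left out it stayed between 0.24 and 0.42. The mean signal was 77.5 ± 8.27 in DMSO and 101 ± 4.67 in TCDD (SD, n = 2 arrays each).

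Bmpr2, the type II receptor, had DMSO signals of 35.7 and 140.3 and TCDD signals of 20.1 and 112.9. In each group replicate 2 was far above replicate 1, by 3.93-fold in DMSO and by 5.62-fold in TCDD, and the groups overlapped. The TCDD difference of -0.40 ± 0.57 (SE) had an interval from -1.65 to 0.85, so these arrays leave a wide range of values. It was -1.20 without DMSO replicate 1, 0.40 without DMSO replicate 2, 0.52 without TCDD replicate 1 and -1.32 without TCDD replicate 2. The signal of TCDD replicate 1 was among those stored as calendar days. With such cells set to 16 the difference was -0.49.

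**Figure D2:**
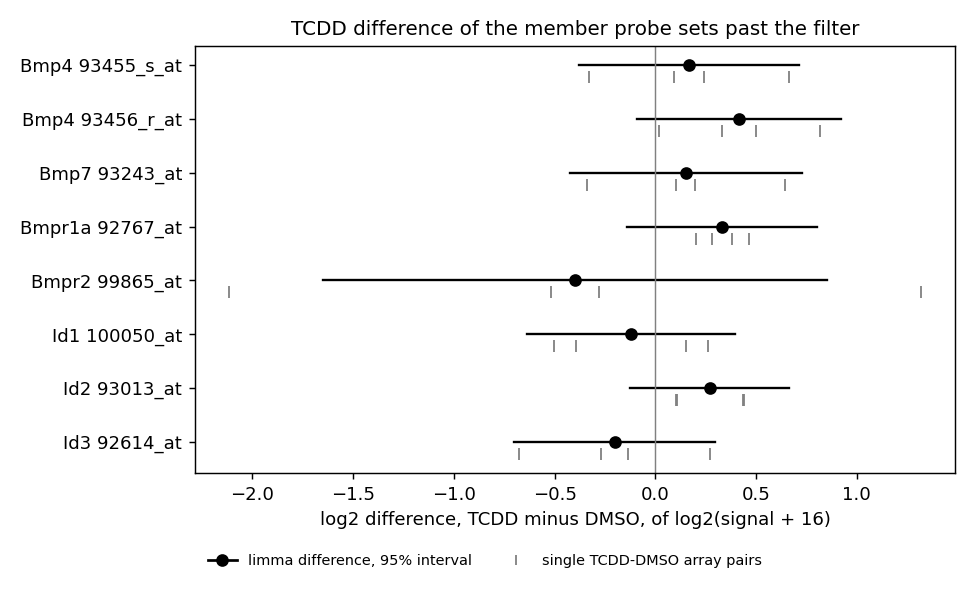
Log2 difference TCDD minus DMSO (horizontal axis, log2(signal + 16) scale) of the 8 member probe sets past the filter. Dots are limma estimates, bars 95% intervals and grey ticks the 4 single array pairs; every interval includes 0, and the pairs of Bmpr2 run from -2.11 to 1.32.

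None of the 3 Id genes changed past the test; the difference of Id2 was above 0 and those of Id1 and Id3 were below. Id1 had DMSO signals of 330.1 and 356.8 and TCDD signals of 247.2 and 398.2. The TCDD arrays lay on either side of the DMSO arrays. The difference was -0.12 ± 0.23 (SE), with an interval from -0.64 to 0.40. Id2 had DMSO signals of 798.9 and 1009.2 and TCDD signals of 1084.7 and 1088.0. Both TCDD arrays were above both DMSO arrays, and they were nearly equal. The difference was 0.27 ± 0.18 (SE), with an interval from -0.13 to 0.67, and it stayed between 0.10 and 0.44 with 1 array left out. Id3, whose promoter window above holds GCGTG next to the start, had DMSO signals of 586.4 and 781.6 and TCDD signals of 483.6 and 711.1. Its groups overlapped, with replicate 2 the higher array of each. The difference was -0.20 ± 0.23 (SE), with an interval from -0.70 to 0.30. Without TCDD replicate 1 the differences of Id1 and Id3 were 0.21 and 0.069, and without DMSO replicate 2 that of Id3 was 0.00074, so these directions rested on single arrays. The Id genes were not tested against each other.

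Nog, the BMP antagonist, had DMSO signals of 53.5 and 36.8 and TCDD signals of 29.5 and 44.5. Its mean of 41.1 was just under the filter of 50, and among the members past the filter Bmpr2 had the lowest mean, 77.2. The groups overlapped, with DMSO replicate 1 the highest array and TCDD replicate 1 the lowest. In the fit without the filter the difference was -0.21 ± 0.30 (SE), with a limma adjusted p of 0.979. It was near 0 when DMSO replicate 1 (-0.0091) or TCDD replicate 1 (-0.0018) was left out, and -0.41 when either replicate 2 was. The signal of TCDD replicate 1 was stored as a calendar day, and with such cells set to 16 the difference was -0.46.

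The replicates of the members differed as follows. At 5 of the 8 probe sets the mean replicate difference was larger than the TCDD difference, where this held for 70.0% of all probe sets tested, so this share is not particular to the members. At 6 of 8 (Bmp4 93455_s_at, Bmp7, Bmpr2, Id1, Id2 and Id3) replicate 2 was above replicate 1 in both groups, against 30.8% of all probe sets, although for Id2 in TCDD the gap was 0.0043 on the log2 scale. At 1 of 8, Bmp4 93456_r_at, replicate 2 was below replicate 1 in both groups, against 28.2% of all. The Bmp4 probe sets thus went opposite ways with replicate number, by 0.42 and 0.57 at 93455_s_at and by -0.31 and -0.48 at 93456_r_at in DMSO and TCDD.

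The replicate difference of Bmpr2, 1.60 in DMSO and 1.84 in TCDD on the log2 scale, was the 4th of all 5783 probe sets by its mean size over both groups, a rank looked up after its values were seen. The median of that mean size was 0.44 for the member probe sets and 0.24 for all. The muscle markers also separated the replicates: none of the 8 listed genes had replicate 2 above replicate 1 in both groups, against 30.8% of all probe sets tested. Their summed signal was 840.3 and 1100 in replicate 1 and 359.9 and 379.8 in replicate 2, in DMSO and TCDD. Only 3 of the 8 passed the filter. Actc1 made the largest part of each sum, with 457.2 and 612.4 in replicate 1 and 152.3 and 180.3 in replicate 2. Of the dental mesenchyme markers 6 of 10 went the other way, higher in replicate 2 in both groups, against 30.8% of all probe sets tested. The 6 include Pax9, which was under the filter, while that share covers only probe sets past it. Col1a1, the brightest of them, was lower in replicate 2 in both groups (1960.8 to 1956.0 in DMSO, 2400.3 to 2277.0 in TCDD). So was Vim, while Barx1 and Prrx1 were lower in DMSO and higher in TCDD. The summed signal of the mesenchyme list went from 3970 in replicate 1 to 4502 in replicate 2 of DMSO and from 4417 to 4877 in TCDD. Msx1 and Dlx2 are on this list and on that of the transcription factors. The part of these tissues in the members' replicate differences was not tested. Replicate number and the amount of RNA labelled, larger in replicate 1, cannot be told apart.

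**Figure D3:**
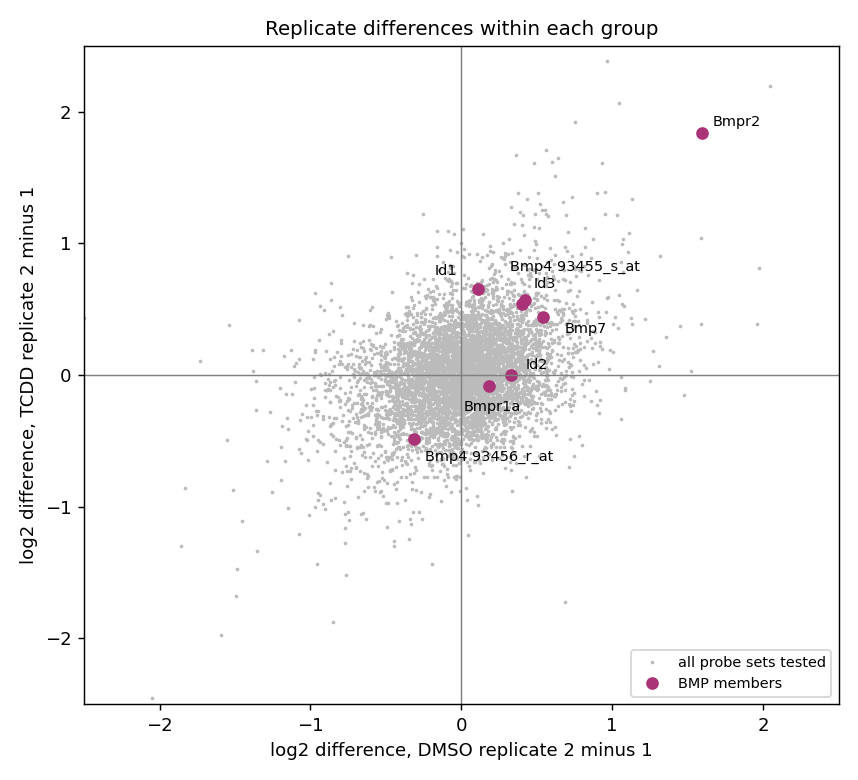
Log2 difference of replicate 2 minus replicate 1 in DMSO (horizontal axis) and in TCDD (vertical axis), on the log2(signal + 16) scale, for all 5783 probe sets tested (grey, 1 of them outside the axes) and the 8 member probe sets past the filter (purple). Bmpr2 stands at 1.60 and 1.84, and the Bmp4 probe sets lie in opposite quadrants.

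Other genes of the pathway were taken from a list of 63 genes sorted by role, of which 46 had a probe set and 30 passed the filter at their brightest probe set. None of the 30 passed limma's adjusted p of 0.05 in either direction, where 0.0435% of the 4595 genes tested did, and 1 had an unadjusted p under 0.05, against 2.57% of all genes. The difference was above 0 for 20 and below 0 for 10, where 52.9% of all genes were above 0, and the median was 0.05 against 0.02 for all. Without the filter 22 of 46 were above 0 with a median of -0.01. In that fit 39.3% of all probe sets were above 0, and the median of all genes was -0.03. That share counts every probe set, not only the brightest of a gene. With 1 array left out 17 to 23 of the 30 were above 0, with medians from 0.0084 (without DMSO replicate 1) to 0.10 (without TCDD replicate 2). In 4 genes both TCDD arrays were above both DMSO arrays (16.1% of all genes) and in 1 both were below (14.1% of all).

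The gene with an unadjusted p under 0.05 was Fst, which encodes follistatin, a secreted protein that binds activins and some BMPs. Its DMSO signals were 95.2 and 131.0 and the TCDD signals 164.6 and 181.4. Both TCDD arrays were above both DMSO arrays, and the difference was 0.56 ± 0.22 (SE), with a limma p of 0.0264 and an adjusted p of 0.997. It was 0.36 when DMSO replicate 1 was left out and 0.76 when DMSO replicate 2 was. Of the secreted antagonists and modulators, 5 of 15 listed passed the filter and all 5 differences were above 0, with a median of 0.22; after quantile normalization, or with any 1 array left out, 4 of 5 were, and the median with 1 array left out was 0.089 (DMSO replicate 1), 0.096 (DMSO replicate 2), 0.14 (TCDD replicate 1) or 0.19 (TCDD replicate 2). Without the filter 6 of 9 genes were above 0, with a median of 0.051, where 39.3% of all probe sets, not of genes, were above 0. Twsg1, which encodes a BMP-binding modulator, differed by 0.27, and Htra1, a secreted serine protease gene, by 0.22.

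Among receptors and co-receptors 4 of 8 passed the filter, 1 above and 3 below 0. Acvr2a, a type II receptor gene for activins and BMPs, had DMSO signals of 110.4 and 103.6 and TCDD signals of 168.0 and 112.8, a difference of 0.32 ± 0.23 (SE), with TCDD replicate 1 well above the other 3 arrays. Its other probe set, 98841_at, stayed at 32.5 or less on every array. Eng, the co-receptor gene endoglin of endothelial cells, differed by -0.16, and Acvr2b by -0.10. Of the other ligands 3 of 14 passed, and Gdf9, Bmp1 (which encodes a protease, not a BMP signal) and Bmp6 differed by -0.11, 0.07 and 0.03. The other probe set of Bmp1, 92701_at, went the other way, by -0.07. That of Bmp6, 92372_at, was under the filter, with DMSO signals of 29.6 and 24.3 and TCDD signals of 35.3 and 39.1.

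Inside the cell, 7 of 13 Smad genes and regulators passed the filter, with a median difference of 0.06. Smad4, the shared partner of the receptor-activated Smads, had DMSO signals of 373.5 and 421.4 and TCDD signals of 527.1 and 426.7. The TCDD arrays were above the DMSO arrays, with the nearest pair almost equal, and the difference was 0.25 ± 0.20 (SE). Tob1, which encodes an antiproliferative Smad-binding protein, differed by 0.19 and Smad1, a receptor-activated Smad of the BMP branch, by 0.08 at 102984_g_at and 0.19 at its other probe set.

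Of the transcription factors downstream of BMPs in the tooth, 8 of 10 passed the filter, 4 above and 4 below 0, with a median of 0.06. That split rested on single arrays: all 8 were above 0 when DMSO replicate 2 or TCDD replicate 1 was left out (medians 0.32 and 0.24), and 2 were when DMSO replicate 1 was (median -0.17). When TCDD replicate 2 was left out the median was -0.06. Dlx3, a homeobox gene, differed by 0.42 ± 0.27 (SE), Dlx2 by 0.21 and Id4 by 0.14. In 7 of these 8 genes replicate 2 was above replicate 1 in both groups, against 30.8% of all probe sets tested. Msx1 and Dlx2, also counted among the mesenchyme markers above, are among the 7. The E protein genes, whose products are bound by Id proteins, all passed the filter. Tcf4 differed by 0.21, Tcf3 by 0.08 and Tcf12 by 0.02, and none passed the test.

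**Figure D4:**
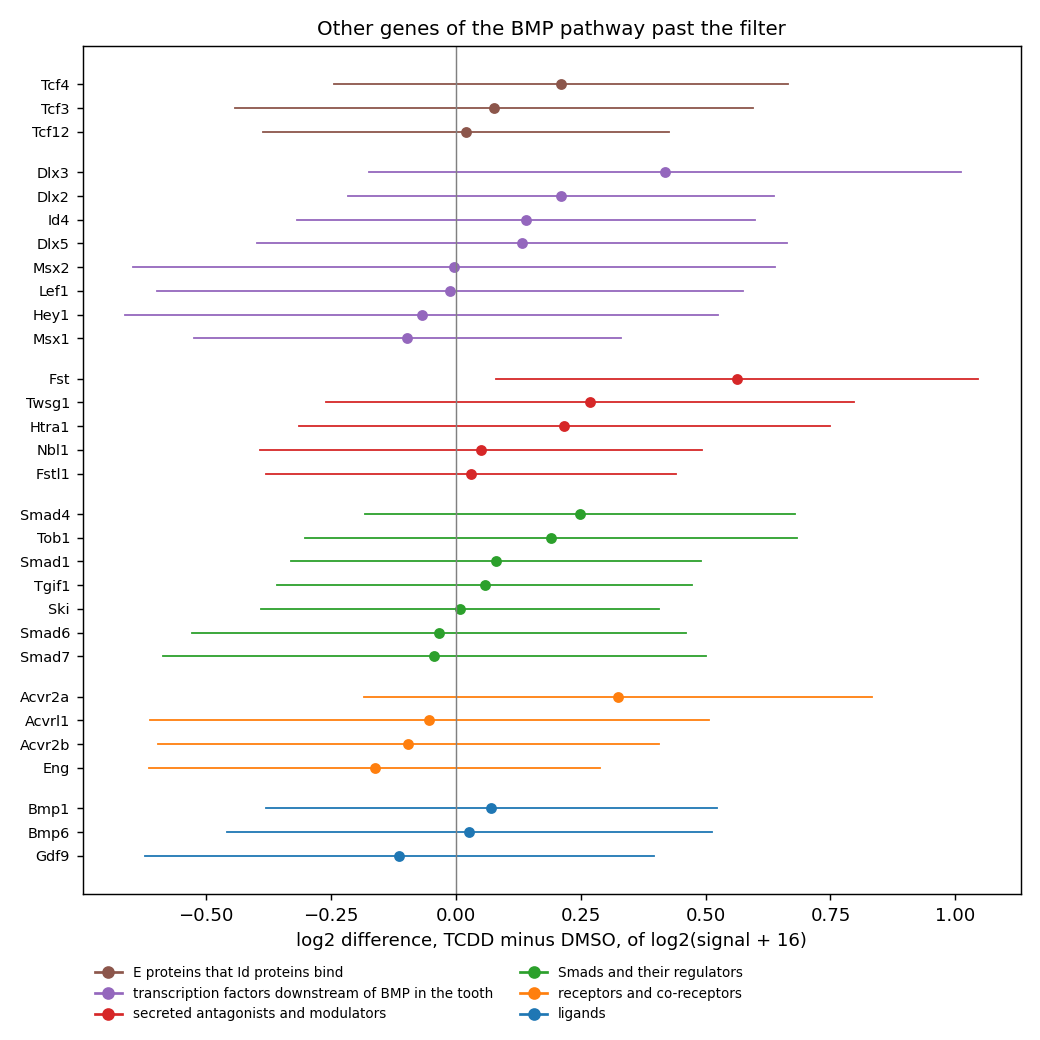
Log2 difference TCDD minus DMSO (horizontal axis, log2(signal + 16) scale) of the 30 other pathway genes past the filter, by role, with limma estimates as dots and 95% intervals as bars. The interval of Fst, from 0.08 to 1.05, is the one that lies above 0; none passed the adjusted p.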

How the data were processed

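The deposited intensity values are MAS5 signals, 1 per probe set and array, which the authors scaled to a target of 100 in Affymetrix Microarray Suite 5.0, per the labels. Of 49952 cells, 18515 (37.1%) held calendar-day serials (38718 to 38990) and were turned back into day.month; this touched 13 of 48 member cells, all from Bmp2, Bmpr2 and Nog. The trimmed mean was then 100.05 on each array. No detection calls were used, and arrays have no depth: their number limits the precision. Gene names came from the platform annotation through Entrez IDs.

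limma 3.58.1 in R 4.3.3 (lmFit, eBayes with a trend) was run on log2(signal + 16) over probe sets averaging a signal of 50 or more, without controls, with Benjamini-Hochberg adjustment, and was tested on simulated data. The fit had 2 residual and 10.8 total degrees of freedom. An exact two-sided permutation test of 2 against 2 arrays cannot go below 0.33 and was not run. p-values measure only the spread between pools and arrays, not between animals. limma drew each probe set's variance toward a trend shared over probe sets, with 8.85 of the 10.8 degrees of freedom from that trend. An SE is therefore not the spread of that probe set's own arrays alone. Named were all member probe sets and, in each role of the pathway list, up to 3 genes with the smallest p. Members and lists were chosen with earlier results of these data known. Alternatives changed the offset, filter, scaling, serial repair, variance model, replicate block and arrays used.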

Additional observations from a re-analysis of the deposited data

How the results depend on the processing

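No member probe set and no pathway gene passed the adjusted p under any of the alternatives run, and the lowest adjusted p of a member was 0.526, for Bmp4 93456_r_at, with the replicate block. Over all probe sets 4 passed; 2 did without the filter, 32 with the replicate block, and 2 to 5 with 1 array left out. The block changed no member's call. In the fit with the block limma took every variance from the trend shared over probe sets, and none from the probe set's own arrays. The 32 calls and the adjusted p of 0.526 rest on that and on the replicate number being part of the fit. The part of each was not tested. Only 2 pairs share a number, and the labels state no pairing; over all probe sets tested, the replicate differences of the groups correlated at 0.38.

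Of 8 member probe sets, 5 were above 0; 3 of the 5 that remained were at a filter of 100, and 3 to 8 with 1 array left out. Their median of 0.16 was 0.057 without the filter, over 12 probe sets, where the median of all probe sets was -0.053. With 1 array left out the members' median was -0.10 to 0.39. Among these 8, directions reversed only with 1 array left out, which sets 1 replicate number against both. Without DMSO replicate 1, Bmp4 93455_s_at was at -0.04 and Bmp7 at -0.12. Without TCDD replicate 2 they were at -0.12 and -0.07. Without DMSO replicate 2, Bmpr2 was at 0.40 and Id3 at 0.00074. Without TCDD replicate 1, Bmpr2 was at 0.52, Id1 at 0.21 and Id3 at 0.069. The ranges with 1 array left out were -0.12 to 0.45 for Bmp4 93455_s_at, -0.12 to 0.42 for Bmp7, -1.32 to 0.52 for Bmpr2, -0.45 to 0.21 for Id1 and -0.47 to 0.069 for Id3. Bmp4 93456_r_at, Bmpr1a and Id2 kept their direction under every alternative in which they were tested. For these probe sets both TCDD arrays were above both DMSO arrays, so leaving out 1 array could not reverse the direction. The filter, the block and the variance model leave the difference itself unchanged, so their kept direction adds little to that. The dim Bmp2 161118_r_at, at -0.04, was at 0.18 with an offset of 1 and at 0.50 with day serials set to 16.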
